A study of Mus musculus with 8 samples.

Results

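Among 22298 mRNAs measured in B cells of mouse bone marrow at 4 stages, 8 genes were examined: Slc38a6, Tmem72, Noct, Olfr77, D10Wsu102e, Ccnb1ip1, Gm21897 and Gm21962. They were selected on measured values of the same libraries, namely 1000 or more pro-B counts and about equal FPKM in every library, while most mRNAs were several-fold lower in the pre-B and immature B libraries. Their flat course is therefore how they were chosen and not a finding, and it is given as a description. FPKM is the count of sequenced fragments scaled to the length of the transcript and to a fragment total of the library, and the counts are estimates that need not be whole.

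All groups came from wild type female C57BL/6 mice of 8 to 10 weeks. Pro-B cells were sorted as B220+ IgM- CD43+, pre-B cells as B220+ IgM- CD43-, immature B cells as B220+ IgM+ CD43- and mature B cells as IgM+ CD43- cells with high B220. Cells of 3 mice were pooled for each stage, and 4 of the 8 libraries of the series, those of RNA depleted of ribosomal RNA, were used. With 1 library per stage there are no replicates, so each difference compares libraries and not stages, and intervals cover counting error only. Where 4 values follow each other they stand in the order of development, from the pro-B to the mature B library.

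A B cell precursor first rearranges its heavy chain locus as a pro-B cell, then its light chain locus as a pre-B cell, shows surface IgM as an immature B cell and gains IgD as a mature B cell. None of the 8 genes is among the usual markers of these steps. A library depleted of ribosomal RNA keeps mature mRNA together with introns, long non-coding RNA and short structural RNA such as the RNA subunit of RNase P, so a gene's count can hold fragments of any RNA that the annotation places in its exons.

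The markers of the stages followed the labels in part. The 5 pro-B markers summed to 1806 counts in the pro-B library against 34, 10 and 10 in those of the later stages, and Dntt, the terminal transferase of heavy chain joining and the most abundant of them, had 845, 0, 0 and 0. The 4 pre-B markers were highest in the pro-B library, with 1109 counts there and 256, 129 and 12.9 in the others, and the most abundant, the recombinase gene Rag1, had 797, 89.4, 0 and 1. The 5 mature B markers reached 3945 counts in the mature B library and 343, 130 and 211 in those before it, with Ighd, the IgD heavy chain, at 59, 13, 24 and 1607. The 4 immature B markers summed to 3764, 1809, 2124 and 4321 counts, led by Ighm, the IgM heavy chain, with 3276, 1717, 1747 and 3314. The 5 B lineage markers had 3465, 1033, 1275 and 4276 counts, led by the B cell factor Pax5 with 1030.1, 203, 278 and 1663. The pre-B and immature B libraries also had smaller totals of all mRNA counts, given below. As a share of all mRNA counts, the immature B markers were 0.434%, 0.753%, 0.95% and 0.509%. The B lineage markers were 0.399%, 0.43%, 0.571% and 0.503%, and both lists were highest in the immature B library. The pre-B markers were 0.128%, 0.107%, 0.0576% and 0.00152%, highest in the pro-B library with the pre-B library close below. Rag1 held 797 of their 1109 pro-B counts and 89.4 of their 256 pre-B counts. Without Rag1 their share was highest in the pre-B library.

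Markers of some other cells were also present. In the pre-B library the myeloid markers had 252 counts beside 256 of the pre-B markers, and in the immature B library 195 beside 129. The 6 myeloid markers summed to 812, 252, 195 and 671 counts, with Lyz2 at 279, 88, 52 and 209 and Csf1r at 0 in every library. The 5 erythroid markers summed to 356, 89, 55.5 and 181, led by the globin gene Hbb-bs with 179.9, 26.2, 13.2 and 93.4, and the 6 markers of T and NK cells to 178, 0, 0 and 5, led by Gzma with 106, 0, 0 and 0. The counts of these 3 lists were lowest in the pre-B and immature B libraries, as was the total of all mRNA counts. Of that total the myeloid markers held 0.0936%, 0.105%, 0.0873% and 0.079%. The erythroid markers held 0.041%, 0.037%, 0.0248% and 0.0213% and the T and NK cell markers 0.0205%, 0, 0 and 0.000589%. The last 2 lists thus fell further than the total from the pro-B library, and the myeloid markers did so in immature B and mature B only. Without Hbb-bs the erythroid share was higher in the pre-B than in the pro-B library. The part of these 3 lists in the results was not tested. The 4 germ cell markers had 0, 0, 1 and 2 counts, with Sycp3 and Tex101 at 0 in every library and Ddx4 the most abundant at 2 mature B counts. Of the 3 markers of olfactory neurons, Gnal was the most abundant, with 37.1, 16.6, 32.8 and 52.5 counts, and Cnga2 was at 0.

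All mRNA counts together came to 867920 for pro-B, 240231 for pre-B, 223495 for immature B and 849350 for mature B. Among mRNAs with an FPKM of 1 or more in either library, 84.4% differed at least 2-fold between the pre-B and pro-B libraries, 7259 of 8911 being lower and 266 higher in pre-B. The median log2 FPKM difference, pre-B minus pro-B, was -2.39 over these mRNAs and 0.05 over the 8 genes, which lay between -0.19 and 0.25. None of the 8 passed 2-fold, which the way they were chosen sets. Fewer cells of a type and less RNA per cell cannot be told apart in such bulk samples.

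The other comparisons follow. Between the immature B and pre-B libraries 48.4% of 5398 mRNAs passed 2-fold, with 1273 lower and 1342 higher in immature B, and the median was 0.04 over them and 0.13 over the 8 genes. Between the mature B and immature B libraries 81% of 8335 mRNAs passed, with 337 lower and 6418 higher in mature B, and the medians were 2.15 and 0.02. Between the mature B and pro-B libraries 41.4% of 9557 mRNAs passed, with 2402 lower and 1551 higher in mature B, and the medians were -0.16 and 0.16. None of the 8 genes passed 2-fold in these comparisons either.

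Choosing genes of flat FPKM where most mRNAs were lower also sets that the 8 genes rose relative to other mRNAs, and the sizes are given as a description. Their summed counts were 22957, 25400.4, 23406.5 and 25469 in the 4 libraries. As a share of the mRNA table these were 2.65% (95% Clopper-Pearson interval 2.61 to 2.68), 10.6% (10.5 to 10.7), 10.5% (10.3 to 10.6) and 3.0% (2.96 to 3.04). With counts scaled to the total of the mRNA table, all 8 were at least 2-fold higher in the pre-B library than in the pro-B library, with a median log2 difference of 1.98, and all 8 were at least 2-fold lower in mature B than in immature B, with a median of -1.90. On that scale the median over mRNAs was -0.54 for pre-B minus pro-B, 37.8% of mRNAs were at least 2-fold lower and 15.3% higher, and the calls were 71.1% lower where they were 96.5% lower on FPKM. With TMM scaling, which assumes that most genes are equal, the median was -0.51, 70.1% of the calls were lower, and the same number of the 8 genes were higher. For mature B minus immature B with counts scaled to the table, 18.8% of mRNAs were lower and 32.9% higher, with a median of 0.34. In that comparison 95% of the calls were higher on FPKM, 63.7% with counts scaled to the table and 67.0% with TMM scaling.

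**Figure D1:**
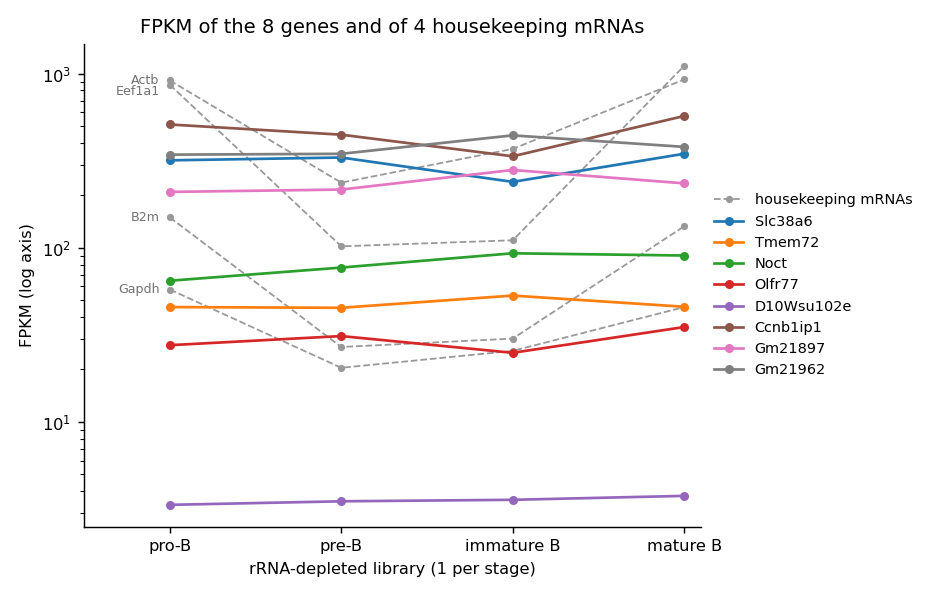
FPKM (log axis) of the 8 genes in the 4 libraries, 1 point per library, with Actb, Eef1a1, B2m and Gapdh as dashed grey lines. The 8 genes stay within 1.70-fold of their lowest value, while Actb lies at 913 in pro-B and 236 in pre-B.

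Slc38a6 belongs to the SLC38 family of sodium-coupled amino acid transporters and had the highest counts of the 8. Its counts were 6753 (95% Poisson interval 6593 to 6916), 7407, 4906 and 7171, at FPKM of 317, 329.6, 239 and 346. Immature B was the lowest library and the others lay close together, with a highest over lowest FPKM of 1.45, the largest among those that stayed within 1.5. The log2 FPKM difference, immature B minus pre-B, was -0.46, with a counting interval of -0.52 to -0.41.

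Most other Slc38 genes were lower in pre-B on FPKM, as were 81.5% of all mRNAs past the filter. Of the 10 other Slc38 genes, 6 had an FPKM of 1 or more in the pro-B or pre-B library, and all 6 were at least 2-fold lower in pre-B, with a median log2 difference of -2.47, near the -2.39 over all mRNAs; with counts scaled to the mRNA total 1 was, beside 37.8% of all mRNAs. Slc38a2, a carrier of neutral amino acids, had 656, 93.5, 61 and 397 counts, and Slc38a1, a glutamine carrier, had 591, 83, 37.4 and 436. In mature B minus immature B, 4 of 5 were at least 2-fold higher on FPKM and 1 was with scaled counts, beside 77.0% and 32.9% of all mRNAs.

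The start of Slc38a6 overlaps that of Trmt5, the gene of a tRNA methyltransferase. In RefSeq the gene lies on the forward strand at chr12:73286739-73361998 of GRCm38.p6, and Trmt5 on the reverse strand shares 237 bases with it. Trmt5 had 7, 4, 8 and 18 counts, and its part in the Slc38a6 counts was not tested. The libraries kept the strand of the RNA, and the reads were mapped with that setting. A long non-coding RNA, D830013O20Rik, lies 2077 bases beyond the other end and was listed at 0 in every library, which allows up to 3 counts.

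RefSeq promoter windows, 250 bases before to 50 after 1 start site per window, were found for 6 of the 8 genes. For 4 of them this site is the outer end of the RefSeq gene, while for Slc38a6 it lies 109 bases and for Tmem72 224 bases inside the gene. Those of Slc38a6 (chr12:73286598-73286897, forward strand), D10Wsu102e (chr10:83359971-83360270, forward strand) and Olfr77 (chr9:19916979-19917278, forward strand), all GRCm38.p6, are printed because they span the range of CpG content among genes of alike flat FPKM, and capitals mark each CG.
Slc38a6: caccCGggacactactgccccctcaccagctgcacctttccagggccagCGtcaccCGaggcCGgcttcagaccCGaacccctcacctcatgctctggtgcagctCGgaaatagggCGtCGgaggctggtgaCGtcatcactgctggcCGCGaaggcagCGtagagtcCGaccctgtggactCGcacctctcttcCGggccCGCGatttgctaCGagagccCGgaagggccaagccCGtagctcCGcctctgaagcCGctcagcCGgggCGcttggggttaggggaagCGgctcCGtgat
D10Wsu102e: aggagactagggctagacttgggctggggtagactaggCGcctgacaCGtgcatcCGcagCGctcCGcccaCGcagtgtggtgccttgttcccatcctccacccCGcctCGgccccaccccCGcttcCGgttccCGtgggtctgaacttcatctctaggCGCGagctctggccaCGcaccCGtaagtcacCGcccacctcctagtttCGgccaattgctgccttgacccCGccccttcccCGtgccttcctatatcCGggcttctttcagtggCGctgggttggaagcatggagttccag
Olfr77: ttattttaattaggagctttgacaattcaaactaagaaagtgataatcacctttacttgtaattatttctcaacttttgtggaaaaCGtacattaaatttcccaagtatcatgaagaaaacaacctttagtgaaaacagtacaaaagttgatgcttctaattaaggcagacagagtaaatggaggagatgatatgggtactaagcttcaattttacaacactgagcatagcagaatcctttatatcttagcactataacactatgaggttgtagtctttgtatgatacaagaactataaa
The motif CG, which reads the same on both strands, occurred 26 times in the Slc38a6 window, 21 times in that of D10Wsu102e and 1 time in that of Olfr77. Of 32851 RefSeq windows of this length, 16.9%, 24.8% and 94.6% held at least as many, and the median was 7. The Tmem72 and Noct windows each held 7 and that of Ccnb1ip1 13. These 6 windows thus were neither all CpG-rich nor all CpG-poor. The Trmt5 window, whose site lies 264 bases inside that gene, is on the opposite strand, shares 236 bases with that of Slc38a6 and held 28.

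Tmem72 encodes a transmembrane protein. It had 4254, 4454, 4791 and 4154 counts, at FPKM of 45.6, 45.2, 53.1 and 45.8. Only the immature B library stood above the rest, and the highest over lowest FPKM was 1.18. RefSeq places the gene on the reverse strand at chr6:116691539-116716982 of GRCm38.p6 with no other annotated gene within 10 kb, the nearest short RNA gene, Mir7043, being 45.5 kb away.

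Noct, or nocturnin, is a protein of the deadenylase family with a daily rhythm in many tissues. Its counts were 3442, 4318, 4786 and 4672, at FPKM of 64.6, 76.9, 92.9 and 90.2. The pro-B library was lowest, and the log2 FPKM difference, mature B minus pro-B, was 0.48 with a counting interval of 0.42 to 0.54, the largest difference of the 8 genes in that comparison. The highest over lowest FPKM was 1.44.

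Its relatives and its neighbour Elf2 were mostly lower in pre-B on FPKM, like most mRNAs. Of the 10 deadenylases and related nucleases listed beside it, 9 passed the FPKM filter and 8 were at least 2-fold lower in pre-B against pro-B, with a median log2 difference of -2.66, beside 81.5% and -2.39 over all mRNAs; with counts scaled to the mRNA total 4 were lower and 1 higher, beside 37.8% and 15.3%. Pan3, of the PAN2-PAN3 deadenylase, had 306, 30, 33 and 300.3 counts, and Pde12, a mitochondrial nuclease, had 162, 132, 54.7 and 146. Elf2, an ETS transcription factor gene that lies 1066 bases beyond Noct on the opposite strand, had 233, 54.2, 66 and 201 counts at FPKM of 23.3, 3.96, 3.61 and 13.7. The long non-coding RNA gene Gm40044 lies 4113 bases from Noct on the other side and was in no table used here.

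Olfr77 is an olfactory receptor gene, of the large family of G protein-coupled receptors known from sensory neurons of the nose. It had 1446, 1724, 1265 and 1787 counts, at FPKM of 27.6, 31.1, 24.9 and 35.0. The immature B library was lowest and the mature B library highest, 1.41 times apart. RefSeq places it on the forward strand at chr9:19917229-19922510 of GRCm38.p6, and the pseudogene Gm7808, 5305 bases away, was in no table used here.

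Other olfactory receptor genes had counts as well. Of 1194 such genes, 1022 had 0 counts in every library and 35 had 20 or more in some library. All of them together, with Olfr77, summed to 4987, 5433, 5911 and 5933 counts, of which Olfr77 held 29.0% in pro-B. Their share of the mRNA table was 0.575%, 2.26%, 2.64% and 0.699%.

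The list without Olfr77 had 28 genes past the FPKM filter in the pro-B or pre-B library. On FPKM 5 of them were at least 2-fold lower and 3 higher in pre-B, with a median log2 difference of -0.07, beside 81.5% lower, 2.99% higher and a median of -2.39 over all mRNAs; with counts scaled to the mRNA total 2 were lower and 22 higher, beside 37.8% and 15.3%. Olfr46 had 916, 1013, 1370.1 and 1224 counts and Olfr1385 had 581, 709, 803 and 616. Among the 7 olfactory receptor genes other than Olfr77 with 100 or more pro-B counts, 3 had a highest over lowest FPKM of at most 1.5, beside 24 of 2178 among all mRNAs with that many counts when the 8 genes are left out. Of the 34 with 20 or more counts, again without Olfr77, 28 had a count that was not whole in some library, beside 1900 of 7793, or 24.4%, among all mRNAs with that many counts when the 8 genes are left out; whether fragments were divided among them was not tested.

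**Figure D2:**
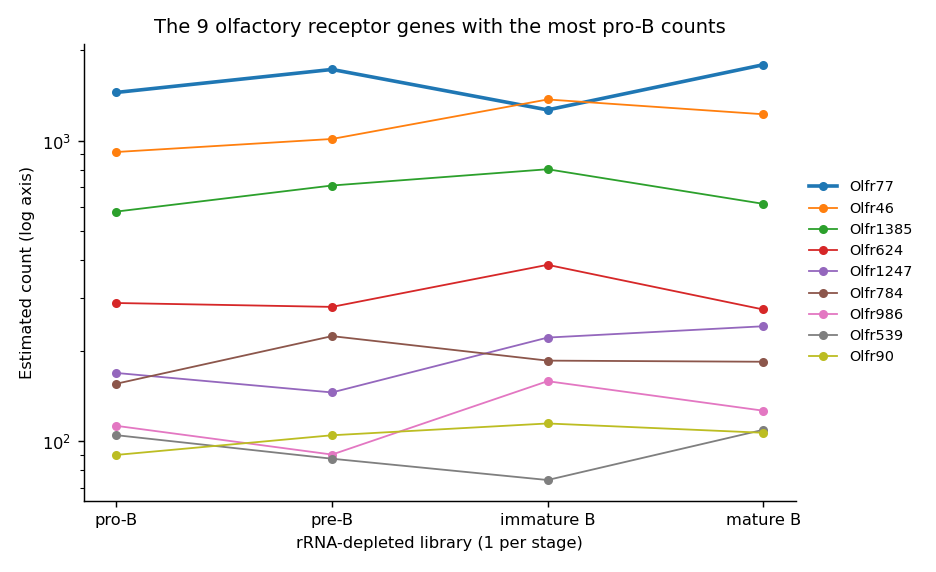
Estimated counts (log axis) of the 9 olfactory receptor genes with the most pro-B counts in the 4 libraries, 1 point per library. Olfr77, the thick line, runs from 1446 to 1787 between the first and the last library, and Olfr46 from 916 to 1224.

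D10Wsu102e is a gene named by its DNA segment on chromosome 10. Its counts were 2233, 2478, 2309.9 and 2449, but its FPKM was only 3.34, 3.50, 3.57 and 3.76. It was the flattest of the 8, with a highest over lowest FPKM of 1.13 and counting intervals that included 0 in every comparison of adjacent stages; for mature B minus pro-B the log2 FPKM difference was 0.17 with an interval of 0.09 to 0.26. RefSeq places it on the forward strand at chr10:83360221-83368835 of GRCm38.p6, and the non-coding RNA gene Gm40723, which ends 8002 bases before it, was listed at 0 in every library.

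Ccnb1ip1 encodes a ubiquitin ligase, also called HEI10, that acts in meiotic crossing over. It had 1231, 1137, 782 and 1339 counts at FPKM of 510.0, 446, 335 and 571, the highest FPKM of the 8 in each library but immature B. The immature B library was lowest, with a log2 FPKM difference, mature B minus immature B, of 0.77 and a counting interval of 0.64 to 0.90. The highest over lowest FPKM was 1.70, so this gene lay outside the limit of 1.5 that the other 7 met.

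The meiotic genes listed beside it were low. Of 10 crossover genes, 2 passed the FPKM filter in the pro-B or pre-B library, and 1 of those was at least 2-fold lower in pre-B on FPKM, while with counts scaled to the mRNA total none was lower and 1 was higher. The median log2 FPKM difference was -1.21, and over all mRNAs 81.5% were lower on FPKM with a median of -2.39, and 37.8% lower and 15.3% higher with scaled counts. Cntd1, a cyclin-like crossover factor, had 76, 92, 93 and 112 counts. The neighbouring gene Ttc5, 3729 bases from Ccnb1ip1 in RefSeq and on the same strand, had 53.2, 13, 6.02 and 42.0 counts.

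The RNA subunit of RNase P, the enzyme that trims the 5′ end of tRNA precursors, is encoded near Ccnb1ip1. RefSeq places Ccnb1ip1 on the reverse strand at chr14:50789249-50795728 and the RNase P RNA gene Rpph1, of 325 bases, at chr14:50807447-50807771 of GRCm38.p6, 11.7 kb apart. Rpph1 was in no table used here. The table of circular RNAs, however, gave Ccnb1ip1 as the host gene of 1 circular RNA on the reverse strand at chr14:50807500-50807650, described there as a single exon. All 151 bases of it lie inside Rpph1 and 11.8 kb from the RefSeq gene, so that table assigned to Ccnb1ip1 an exon where RefSeq has Rpph1.

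That circular RNA was counted by back-spliced reads, those that join an end of an RNA to its start. It had 5 reads in pro-B (95% Poisson interval 1.62 to 11.7), 4 in pre-B (1.09 to 10.2), 9 in immature B (4.12 to 17.1) and 1 in mature B (0.025 to 5.57), of 1370, 1719, 1751 and 1531 in all. The intervals overlap across the 4 libraries. The labels name the build mm9, yet 930 of 963 circular RNAs with a host gene in RefSeq lay inside that gene's GRCm38.p6 span. No circular RNA lay within 10 kb of the 6 genes with a RefSeq entry. How many of the Ccnb1ip1 counts came from Rpph1 was not tested.

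Gm21897 and Gm21962 are predicted genes with no entry in the RefSeq table used here. Gm21897 had 1705, 1859, 2205 and 1857 counts at FPKM of 209, 216, 279.5 and 234, and Gm21962 had 1892, 2022, 2362 and 2039 counts at FPKM of 342, 346, 442 and 379. Both were highest in immature B, with a highest over lowest FPKM of 1.34 and 1.29. The count of Gm21897 over that of Gm21962 was 0.901, 0.919, 0.933 and 0.910. The pair thus kept nearly the same ratio in every library, which the choice of genes of flat FPKM favours.

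The mRNA table gives both the KEGG orthology entry of Gnao1, a G protein subunit, which 5 rows carry. Gnao1 itself had 6, 21, 12 and 12 counts, the predicted gene Gm21750 had 101, 179, 142 and 162 and the predicted gene Gm17555 had 55.5, 34.6, 34.8 and 55.9; these rows were picked after their values were seen. None of the 4 predicted genes had a whole count in any library, and division of fragments between like sequences was not tested. How certain their counts are one by one was likewise not tested.

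Counts that are not whole occurred in 7 of the 8 genes, Ccnb1ip1 being the exception. Among the 44 mRNAs with 1000 or more pro-B counts 29 had such a count in some library, or 65.9%, and among the 2186 with 100 or more 784 did, or 35.9%. StringTie divides a fragment that maps to several places, but whether this gave the counts that are not whole was not tested. The 29 include the 7 genes, so such counts were also found in other mRNAs of high count.

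Dividing a count by its FPKM gives the product of fragment total and transcript length. For 8 genes without introns, whose length RefSeq gives directly, this implied a median total of 5437759 fragments in the pro-B library, with single genes between 3150587 and 5451494. The totals were 5747162 for pre-B, 5260318 for immature B and 5288102 for mature B, from the median change of count over FPKM among mRNAs with 100 or more counts in both libraries. FPKM was therefore scaled to totals that were nearly equal, while the mRNA counts were not. The study's formula takes this total as fragments assigned to reference genes, and which fragments it holds was not tested, so the shares below are of the implied total only.

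The mRNA table held 16.0% of this total in pro-B (95% Clopper-Pearson interval 15.9 to 16.0), 4.18% in pre-B (4.16 to 4.2), 4.25% in immature B (4.23 to 4.27) and 16.1% in mature B (16.0 to 16.1). These intervals take the implied total as known and leave out its spread between the single genes without introns. The 8 genes held 0.422%, 0.442%, 0.445% and 0.482%. Unannotated transcripts of the lncRNA table held 49.2%, 58.9%, 59.6% and 49.9% and annotated lncRNAs 2.18%, 1.52%, 1.73% and 2.40%. The remainder is what the implied total leaves after both tables, and whether it stands for sequenced fragments was not tested. In pro-B both tables together held 3663439 counts, above the 3150587 fragments that the lowest single gene implied. The pre-B and immature B libraries thus had the lower mRNA shares and the higher shares of unannotated transcripts, and the level share of the 8 genes follows from how they were chosen.

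**Figure D3:**
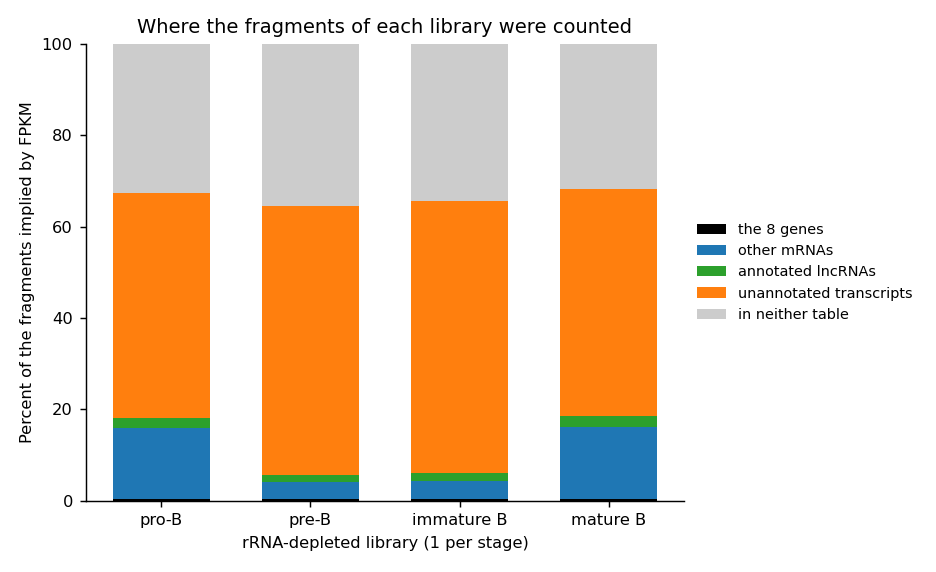
Percent of the fragment total implied by FPKM (stacked bars, 1 per library) held by the 8 genes, other mRNAs, annotated lncRNAs and unannotated transcripts. The grey part is what the implied total leaves after both tables. Other mRNAs take 15.5% in pro-B and 3.74% in pre-B, while the 8 genes, the thin black base, take 0.422% and 0.442%.

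Transcripts without a gene annotation had a median difference near 0. Over 8081 unannotated transcripts the median log2 FPKM difference, pre-B minus pro-B, was -0.10, with 29.7% at least 2-fold lower and 14.4% higher, and over 3011 annotated lncRNA transcripts it was -2.10. Of 438 unannotated transcripts with 1000 or more pro-B counts 124, or 28.3%, had a highest over lowest FPKM of at most 1.5, and of 16 annotated lncRNA transcripts 8 did. Positions of the unannotated transcripts are not analysed here, so whether any lies at the 8 genes was not tested.

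**Figure D4:**
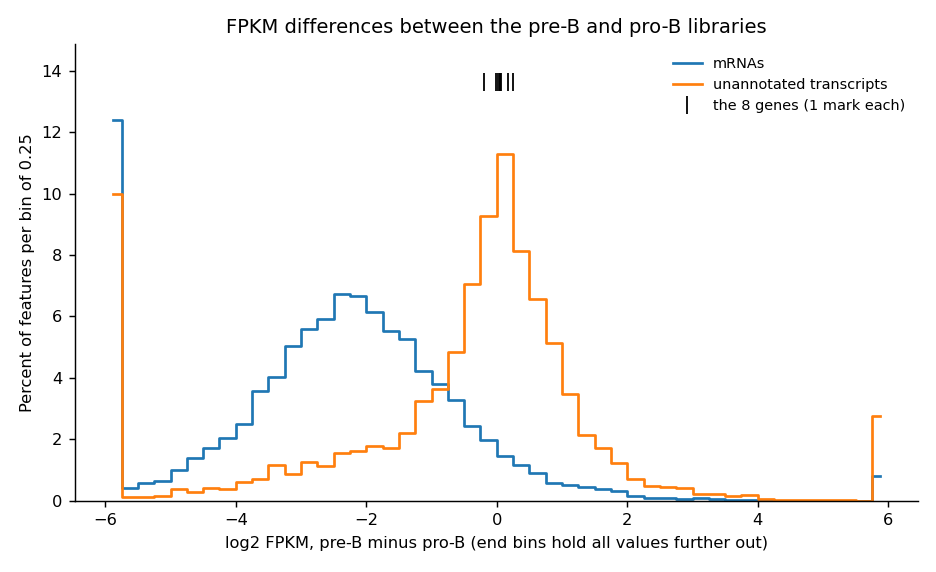
Distribution of log2 FPKM differences, pre-B minus pro-B, for mRNAs (blue) and unannotated transcripts (orange) as percent of features per bin, with 1 black mark per gene for the 8 genes. The mRNAs centre on -2.39 and the unannotated transcripts on -0.10, and the 8 genes lie between -0.19 and 0.25.

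The implied total also gives each gene's implied transcript length. It rests on the pro-B count and FPKM, and the limit of 1000 counts in the choice of the 8 genes favours long ones at a given FPKM. In the pro-B library it was 3912 bases for Slc38a6, 17145 for Tmem72, 9794 for Noct and 9644 for Olfr77. It was 122955 for D10Wsu102e, 444 for Ccnb1ip1, 1499 for Gm21897 and 1017 for Gm21962. The median over the 2161 mRNAs with 100 or more counts and a RefSeq entry was 3091. Among the 44 mRNAs with 1000 or more pro-B counts, which met the same limit, D10Wsu102e had the longest and Ccnb1ip1 the shortest, and the median over the 28 other than the 8 genes with a RefSeq entry was 3217.

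For D10Wsu102e the implied length was 14.3 times its RefSeq gene span of 8615 bases, introns included, and for Olfr77 1.83 times its span of 5282 bases. A length above 1.1 times the span occurred in 23 of 2161 mRNAs, or 1.06%, and in 2 of the 6 genes with a RefSeq entry, beside 0 of the 28 others with 1000 or more counts. By the formula of FPKM these genes were thus given more bases than the RefSeq gene holds. Of the 7 other olfactory receptor genes with 100 or more pro-B counts 6 exceeded that limit, among them Olfr539 with 11471 bases against 960 and Olfr1385 with 3154 against 930. The remaining genes with a RefSeq entry stayed within their spans, Slc38a6 using 0.052 of it, Tmem72 0.674, Noct 0.360 and Ccnb1ip1 0.068. The implied 444 bases of Ccnb1ip1 stand beside the 325 of Rpph1, and their relation was not tested.

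**Figure D5:**
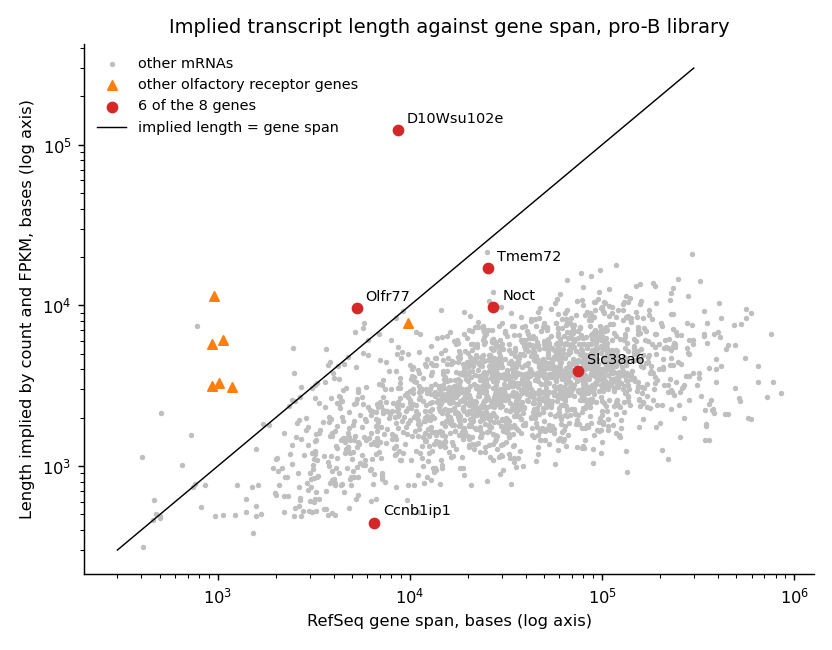
Transcript length implied by count and FPKM in the pro-B library against RefSeq gene span, both in bases on log axes, 1 point per mRNA with 100 or more pro-B counts. D10Wsu102e lies far above the line of equality at 122955 bases, Olfr77 and most other olfactory receptor genes (triangles) lie above it, and Ccnb1ip1 is near the lower edge at 444 bases.

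Of the 44 mRNAs with 1000 or more pro-B counts 8, or 18.2%, had a highest over lowest FPKM of at most 1.5. These were 7 of the examined genes and the mitochondrial gene mt-Nd6, a subunit of respiratory complex I, encoded on the mitochondrial strand opposite to the other mRNAs. It had 2874, 2798, 2576 and 2692 counts at FPKM of 1019, 938, 944 and 981, 1.09 times apart and flatter than any of the 8. Just outside the limit lay Ccnb1ip1 at 1.70, then Ighm at 2.06 and mt-Nd5, also of complex I, at 2.17. Of the other 36 mRNAs with that many counts 34 were at least 2-fold lower in pre-B against pro-B, with a median log2 difference of -2.02.

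The mRNAs most like each gene were sought among the 2186 with 100 or more pro-B counts, by the largest gap between the log2 FPKM differences from pro-B in the other 3 libraries. For Gm21897 the nearest was Gm21962, at a gap of 0.05, followed by B3galt2 at 0.14 and Olfr1385 at 0.16. For Gm21962 it was Gm21897, then B3galt2 and Tmem72 at 0.15 each. Those closest to D10Wsu102e were Nek6 at 0.09, Tmem72 at 0.16 and mt-Nd6 at 0.23. B3galt2, a galactosyltransferase gene, had 660 counts in pro-B and 781 in pre-B, and Nek6, a mitotic kinase gene, 241.5 and 252. Closest to Tmem72 were Bace1 at 0.13, Nek6 at 0.14 and Gm21962 at 0.15, and closest to Noct were Cog5 at 0.10, Olfr46 at 0.19 and Ly6d at 0.19. Closest to Slc38a6 were Psip1 at 0.14, Phykpl at 0.19 and Ccnb1ip1 at 0.25. Several of the 8 genes were therefore among the nearest of each other, which the way they were chosen favours. For Olfr77 the nearest were Psip1 at 0.22, D10Wsu102e at 0.24 and Gm5148 at 0.25, and for Ccnb1ip1 they were Olfr539 at 0.16, Eif2s2 at 0.23 and Slc38a6 at 0.25.

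Other lists show how RNA of known kinds behaved. All 10 housekeeping mRNAs were at least 2-fold lower in pre-B against pro-B on FPKM, with a median log2 difference of -2.21 (81.5% and -2.39 over all mRNAs), and none was with counts scaled to the mRNA total (37.8%). Actb, a cytoskeletal actin, had 5942, 1603, 2204 and 5712 counts, and Eef1a1, a translation elongation factor, had 5112, 742, 651 and 6227. Of 11 genes of box C/D snoRNP assembly, which build the particles that methylate ribosomal RNA, 10 passed the FPKM filter and 7 were lower on FPKM, with a median of -1.96, against 2 lower and 3 higher with scaled counts, beside 37.8% and 15.3% over all mRNAs. Nop58, a core protein, had 90, 12, 15 and 82 counts and Ruvbl2, an assembly factor, 85, 30.4, 19.1 and 62.

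Non-coding RNA of known function was mostly lower on FPKM as well. All 5 long nuclear RNAs were at least 2-fold lower in pre-B against pro-B on FPKM, with a median of -2.44, beside 60.6% and -2.10 over annotated lncRNA transcripts, and 2 were with scaled counts, beside 44.6%; Malat1 had 4669, 449.6, 966 and 6146 counts and Xist, the RNA of X inactivation, 3517, 247, 227 and 2546. Of 17 short structural RNAs 2 were listed. Rmrp, the RNA of RNase MRP, had 1012, 348, 342 and 1650.0 counts and was at least 2-fold lower in pre-B on FPKM but not with scaled counts, and Terc, the telomerase RNA, had 2, 4, 0 and 2. The median over both was -0.35. Within 10 kb of the 6 genes with a RefSeq entry RefSeq has 7 other genes, none of them a short structural RNA or miRNA, and 5 of the 7 were listed in a table used here.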

How the data were processed

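The authors removed ribosomal reads with Bowtie2, mapped the remaining paired reads with HISAT2 with its strand setting and quantified transcripts with StringTie. The estimated counts of the mRNA and lncRNA tables were deposited without normalization, and the FPKM values deposited beside them are scaled by transcript length and a total of fragments, by the study's formula those assigned to reference genes. Back-spliced reads of circRNAs were found with find_circ, and their counts, as deposited, cover circRNAs with at least 2 in 1 library. The RPM values deposited by the authors for circRNAs were not needed. The small RNA table was not used.

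A log2 difference of FPKM had 0 replaced by 0.001, needed an FPKM of 1 or more in either library, and was called at 2-fold. Counts were rounded for intervals and for TMM factors of edgeR 4.0.16 in R 4.3.3. Python 3.11.15 with numpy 2.4.6, pandas 2.3.3 and scipy 1.17.1 did the rest, and the functions were tested on simulated counts. No test was run, since each stage has 1 library. Named are the 8 genes, annotated genes within 10 kb that are listed or non-coding, other mRNAs of flat FPKM, the 3 nearest mRNAs, markers, and up to 2 list genes of most counts; 1 listed gene is not reported here. The 8 genes and the lists were chosen with earlier results of these data known, and the intronless genes (Jun, Junb, Jund, Ier2, Cebpb, Sox4, Rhob and Ier5) after the values were seen. RefSeq positions are those of GRCm38.p6.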

Additional observations from a re-analysis of the deposited data

How the results depend on the processing

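No paired analysis was possible because each stage has 1 library. The numbers of mRNAs past 2-fold were 7525 for pre-B minus pro-B, 2615 for immature B minus pre-B, 6755 for mature B minus immature B and 3953 for mature B minus pro-B. Without a filter on low values they were 11381, 7310, 10474 and 7223, and among mRNAs with 1000 or more pro-B counts, where fewer are counted, 34, 6, 33 and 8. With counts scaled to the mRNA total the first and the third were 4733 and 4309, and with TMM scaling 4711 and 4379. With FPKM + 1 the second and the fourth were 1328 and 2541. The median log2 difference of the 8 genes was 1.98 for pre-B minus pro-B with counts scaled to the mRNA total and 2.01 with TMM scaling, against 0.05 on FPKM. For mature B minus immature B it was -1.90 and -1.81, against 0.02, and for mature B minus pro-B 0.30 with TMM scaling, against 0.16. The 8 mRNAs of flat FPKM became 3 at the stricter planned limit (D10Wsu102e, Tmem72 and mt-Nd6) and 31 at 100 or more pro-B counts. In settings chosen after seeing the data, leaving out the immature B library gave 9, with Ccnb1ip1 added, and leaving out any other library gave 8. Of the 7 annotated neighbours within 10 kb 1 overlapped a gene, and of 23 mRNAs with an implied length above their span 12 were above 2 times the span, a limit also added later. The genes at least 2-fold lower in pre-B against pro-B with counts scaled to the mRNA total were 1 of the Slc38 family, 4 deadenylases and related nucleases, 2 of box C/D snoRNP assembly, 0 meiotic crossover genes, 0 housekeeping mRNAs, 0 short structural RNAs, 2 long nuclear RNAs and 2 olfactory receptor genes. The shifts between FPKM and scaled counts for pre-B minus pro-B and mature B minus immature B go with the smaller mRNA total of the pre-B and immature B libraries; the cause of the other changes was not tested. The other settings moved counts by less than 1.5 times and values by less than counting error. Depth limits the circular RNA, with 1 to 9 reads per library, and the neighbours Trmt5 and Ttc5 more than the 8 genes, whose intervals are narrow but hold no spread between mice.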

Other observations

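Vomeronasal receptor genes, a family of pheromone receptors examined after the values were seen, also had counts. The 356 genes of the mRNA table whose symbol begins with Vmn summed to 1005 counts in pro-B, 964 in pre-B, 1075 in immature B and 995 in mature B. Vmn2r53 had 326, 399.9, 522 and 376 counts and Vmn2r60 had 352, 264, 227 and 232. These genes held most of the summed counts in pro-B. The gene with the next most counts there was not level, with 100, 26.4, 43.5 and 96. Of the 4 that passed the FPKM filter in pro-B or pre-B none was at least 2-fold different on FPKM, where 84.4% of all mRNAs were, and 3 were at least 2-fold higher in pre-B with counts scaled to the mRNA total, where 15.3% of all mRNAs were. The median log2 FPKM difference, pre-B minus pro-B, was -0.40, beside -0.07 for the olfactory receptor genes without Olfr77.

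Of the 16 annotated lncRNA transcripts with 1000 or more pro-B counts, 13 belonged to predicted genes, and 8 of these 13 were at most 1.5-fold apart in FPKM, as was none of the 3 others. Gm47578, with the most pro-B counts of the 13, had 4448, 3926, 4815 and 4016, with FPKM 1.34 times apart. Gm45899, the flattest of the 13, had 1879.6, 2236, 1933 and 1979.5, with FPKM 1.13 times apart. Of the 5 beyond 1.5-fold, Gm48161 was the furthest apart at 2.29, with 1073, 1082, 1793 and 2282 counts. Among the unannotated transcripts with the most pro-B counts, 1 alone held 242864 counts in pro-B and 439315 in pre-B, more than the whole mRNA table of the pre-B library.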
